A study of Mus musculus with 8 samples.

Results

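The JAK, STAT and SOCS genes described here are the 10 genes Jak1, Jak2, Stat3, Stat5a, Stat5b, Cish, Socs1, Socs2, Socs3 and Ptpn1, taken by name from the arrays' RefSeq accessions. They were covered by 15 of the 56605 probes, with 2 probes each for Jak2, Stat3, Stat5a, Socs2 and Ptpn1 and 1 for each of the others. All 10 genes and all 15 probes passed the filter on dim signal, among 26510 genes and unnamed transcripts tested. RNA from whole liver of mice aged 10 to 11 weeks was hybridised to 1-colour Agilent arrays, in 4 groups of n = 2 arrays: wild-type males, Bcl6-deficient males, wild-type females and Bcl6-deficient females. The deficiency is labelled liver-specific; neither its driver nor the allele or strain is named in the labels. The study asked how Bcl6, a zinc-finger repressor of transcription, shapes the difference between male and female liver. The sources do not say that each array came from a separate animal, so the p-values reflect the spread among the arrays, which may be technical.

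Growth hormone and many cytokines act through receptors without an enzyme of their own: binding of the hormone brings receptor-bound Janus kinases (JAKs) together, and these phosphorylate STAT transcription factors, which pair, enter the nucleus and bind DNA. In liver, growth hormone works mainly through JAK2 and STAT5, and the male and female rhythms of its release are read out as different STAT5 activity, while interleukin-6 works mainly through JAK1 and STAT3 in the acute phase response. The SOCS proteins and CIS (the product of Cish) are induced by STATs and switch the same receptors off again, and the phosphatase PTP1B (the product of Ptpn1) removes phosphate from JAK2 and from the insulin receptor. Bcl6 binds DNA elements that resemble those of STAT proteins and is known as a repressor of some STAT5 target genes. Arrays measure transcripts, not the phosphorylation on which this pathway runs.

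Levels below are log2 signals relative to the 75th percentile of the same array, so that 0 is a signal at that percentile and 1 unit is a doubling. Levels of different genes come from different probes and were not compared with each other. Where single groups of 2 arrays are said not to overlap, this describes the values only. The share of all genes with such a separation is not given. A difference was called where the limma p-value, adjusted by Benjamini-Hochberg over all 26510 genes, was under 0.05; SE is the standard error of the log2 difference. The 8 arrays lay on 1 slide, with females in one row and males in the other, and sex and row therefore cannot be told apart, while each row held both genotypes. The probe for Bcl6 read 3.97 and 2.91 in wild-type males, 4.49 and 4.01 in knockout males, 2.95 and 0.86 in wild-type females, and 1.62 and 4.41 in knockout females. It was thus not lower in the arrays labelled knockout (log2 difference averaged over the sexes 0.96 ± 0.75 SE, adjusted p = 0.398). No source used here gives the position of the deletion relative to this probe, so the genotypes rest on the labels.

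Averaged over the sexes, 2 of the 10 genes rose in the arrays labelled knockout, Socs2 and Stat3, and 0 fell. Over all genes 19.8% passed the same test, 9.82% as higher and 10% as lower, so the count is near the background. The arrays of the genotypes did not overlap for the same 2 genes, against 25% of all genes. The members' median log2 difference was 0.06 and that of all genes was -0.02. In males alone 0 of 10 passed limma's adjusted threshold (3 at an unadjusted p under 0.05), against 10.7% of all genes. In females alone 0 of 10 passed (2 unadjusted), against 5.93%. The knockout effect itself did not pass as different between the sexes for any of the 10 (0 unadjusted), against 0.185% of all genes. In whole liver, fewer cells of a type and less RNA per cell cannot be told apart.

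**Figure D1:**
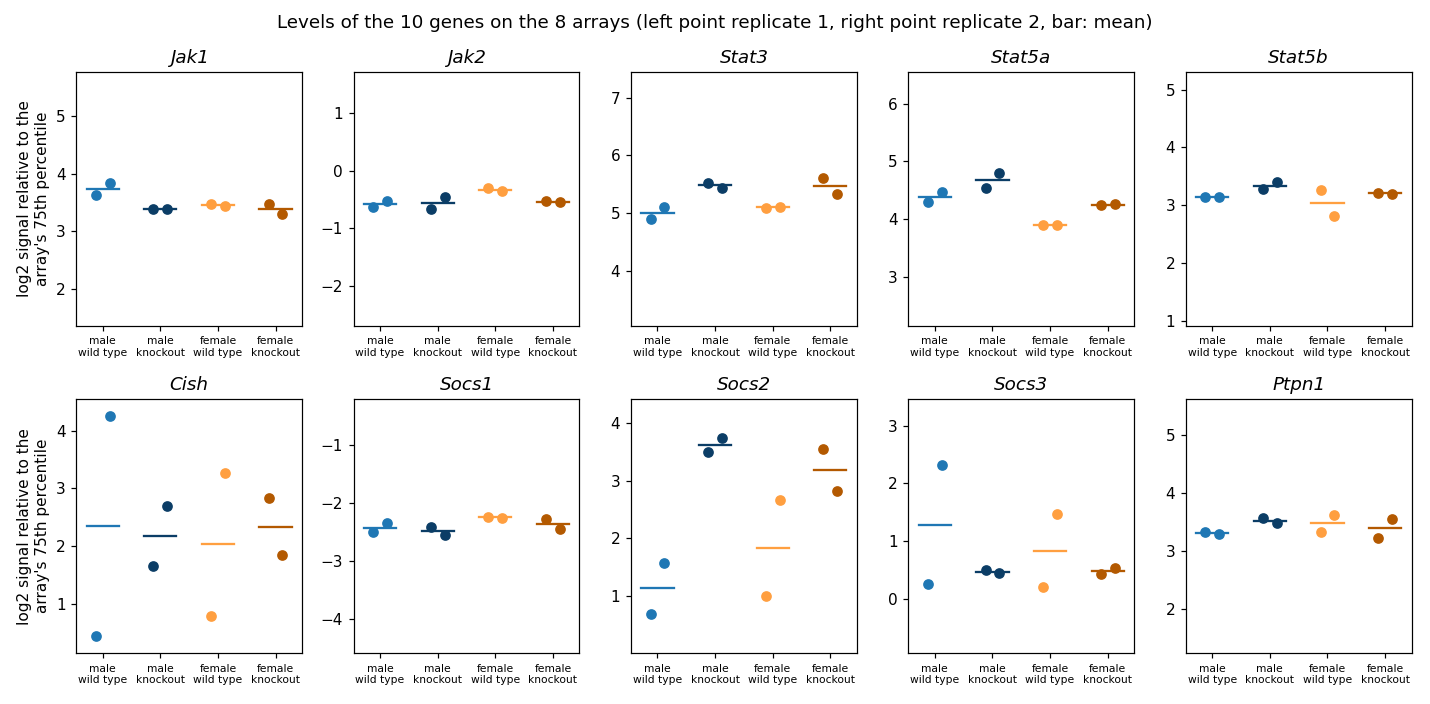
Level of the 10 genes on each of the 8 arrays (log2 signal relative to the array's 75th percentile), 1 panel per gene, with groups on the horizontal axis, points for the 2 arrays of a group and bars for their mean; every panel spans the same number of log2 units. The 4 knockout arrays sit above the 4 wild-type arrays for Socs2 (2.83 to 3.74 against 0.69 to 2.67) and Stat3 (5.34 to 5.60 against 4.89 to 5.10), and the arrays of 1 group lie far apart for Cish.

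The kinases stand first in the pathway, and neither passed the test in any comparison of the fit across all genes. Jak1, which serves interleukin-6 and interferon receptors, read 3.63 and 3.83 in wild-type males, 3.39 and 3.38 in knockout males, 3.47 and 3.44 in wild-type females and 3.47 and 3.30 in knockout females. Wild-type males were the highest group, above the other 6 arrays, and the other 3 groups lay together. The averaged knockout difference of Jak1 was -0.21 ± 0.08 (SE; 1.16-fold lower, adjusted p = 0.121, unadjusted p = 0.0405) and did not pass. Its value was -0.35 ± 0.12 in males and -0.08 ± 0.12 in females. The difference between these did not pass either (-0.27, 95% interval -0.67 to 0.13). Under 1 of the 16 alternatives the averaged Jak1 difference passed (limma adjusted p = 0.0311), and under 1 of 17 the male one did (0.0371).

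Jak2, the kinase bound to the growth hormone receptor, read -0.64 and -0.53 in wild-type males, -0.67 and -0.46 in knockout males, -0.31 and -0.36 in wild-type females and -0.53 and -0.55 in knockout females. Wild-type females were the highest group and did not overlap the rest. The averaged knockout difference was -0.09 ± 0.08, with a 95% interval from -0.28 to 0.10 and an adjusted p of 0.437. Its second, dimmer probe gave 0.11 ± 0.36. In wild type, males minus females was -0.25 ± 0.11 for Jak2 (adjusted p = 0.308).

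Stat3, the acute phase STAT, read 4.89 and 5.10 in wild-type males, 5.52 and 5.43 in knockout males, 5.09 and 5.10 in wild-type females and 5.60 and 5.34 in knockout females. All 4 knockout arrays lay above all 4 wild-type arrays, and within each genotype the sexes overlapped. The averaged rise of Stat3 was 0.43 ± 0.09 (SE; 1.35-fold, adjusted p = 0.0279), with 0.48 ± 0.13 in males and 0.37 ± 0.13 in females. Of all genes, 24.7% had a larger difference in either direction. The second probe of Stat3 gave 0.29 ± 0.15 (adjusted p = 0.208), in the same direction but not past the threshold. The call rested on several arrays at once: the adjusted p was 0.0595 without female wild type 1, 0.0624 without female wild type 2, 0.0704 without male wild type 1, 0.0773 without male knockout 2, 0.0814 without female knockout 1 and 0.0968 without male knockout 1, with a log2 difference of 0.36 to 0.49. With no filter on dim probes it was 0.0844, and with the 2 probes averaged 0.0856.

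Stat5a and Stat5b encode near-identical growth hormone STATs. Their genes lie next to each other on chromosome 11, followed by Stat3, with no other protein-coding gene between them in the RefSeq gene order (GRCm38.p6). Stat5a read 4.30 and 4.47 in wild-type males, 4.53 and 4.80 in knockout males, 3.90 and 3.90 in wild-type females and 4.24 and 4.26 in knockout females. The order of the groups was wild-type females, knockout females, wild-type males and knockout males, with no overlap between any neighbours in that order. Within each sex the knockout arrays were the higher ones, by 0.28 ± 0.13 in males and 0.35 ± 0.13 in females, while over all 8 arrays the genotypes overlapped. The averaged knockout difference of 0.32 ± 0.09 (1.24-fold) just missed the threshold in the fit across all genes (adjusted p = 0.0551). Under 4 of the 16 alternatives it passed (adjusted p = 0.0209 to 0.0484), and over all of them the adjusted p ranged from 0.0209 to 0.338. A second, dimmer probe of Stat5a gave 0.08 ± 0.23.

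Stat5b, the more abundant STAT5 of liver in most accounts, read 3.15 and 3.15 in wild-type males, 3.28 and 3.40 in knockout males, 3.26 and 2.82 in wild-type females and 3.21 and 3.19 in knockout females. The female wild-type arrays spread widest and spanned the female knockout pair. Its averaged difference was 0.18 ± 0.11 (95% interval -0.09 to 0.45, adjusted p = 0.294).

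Stat5a had the lowest p of the 10 genes in the comparison of the sexes. Males exceeded females by 0.45 ± 0.09 averaged over the genotypes (1.37-fold), by 0.49 ± 0.13 in wild type and by 0.42 ± 0.13 in knockout, and all 4 male arrays lay above all 4 female arrays. It was the only member whose sexes did not overlap, against 5.57% of all genes. The unadjusted p was 0.00209 and the adjusted p 0.114, so it was not called. Of the 10 genes, 0 passed limma's adjusted threshold between the sexes, with 1 at an unadjusted p under 0.05 in each of the 3 sex comparisons. The background was 0.962% of all genes in wild type, 0.0754% in knockout and 0.547% averaged over the genotypes. The second probe of Stat5a gave males minus females of 0.06 ± 0.23, so the difference was seen with 1 of 2 probes. For Stat5b males minus females was 0.12 ± 0.11 (95% interval -0.15 to 0.40).

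**Figure D2:**
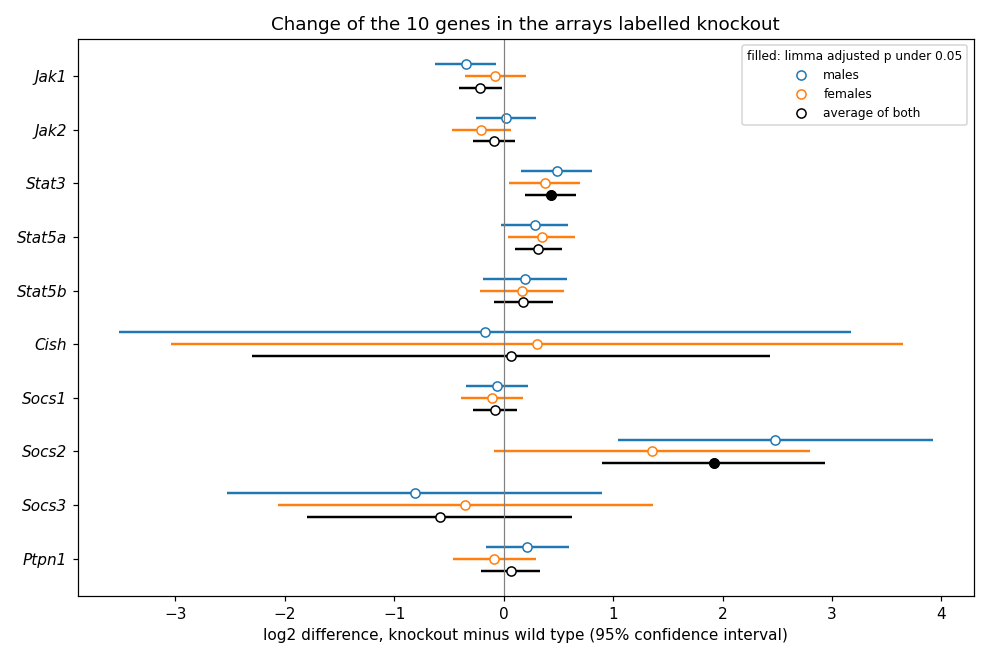
Log2 difference between arrays labelled knockout and wild type for the 10 genes, in males (blue), females (orange) and averaged (black), with 95% confidence intervals; filled points have a limma adjusted p under 0.05. Socs2 (1.92) and Stat3 (0.43) have filled averaged points, and the intervals of Cish and Socs3 span several log2 units.

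Among the feedback inhibitors, Socs2 had the largest rise. SOCS2 is the member of the family that restrains growth hormone signalling at its receptor. The stronger Socs2 probe read 0.69 and 1.58 in wild-type males, 3.50 and 3.74 in knockout males, 1.0 and 2.67 in wild-type females and 3.55 and 2.83 in knockout females. All 4 knockout arrays were above all 4 wild-type arrays, though the higher female wild-type array (2.67) came close to the lower female knockout array (2.83). In order, the group means were 1.13 ± 0.62 (SD, n = 2) in wild-type males, 1.83 ± 1.18 in wild-type females, 3.19 ± 0.51 in knockout females and 3.62 ± 0.17 in knockout males. The wild-type groups overlapped each other and so did the knockout groups.

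The averaged rise of Socs2 was 1.92 ± 0.42 (SE; 3.78-fold, 95% interval 0.90 to 2.94, adjusted p = 0.0266), and only 2.04% of all genes had a larger difference in either direction. In males the difference was 2.48 ± 0.59 (5.59-fold, adjusted p = 0.0509) and in females 1.36 ± 0.59 (2.56-fold, adjusted p = 0.223), neither past the threshold alone. The male value exceeded the female one by 1.13 ± 0.83 (95% interval -0.91 to 3.16, adjusted p = 0.78), so no difference between the sexes was shown. The second Socs2 probe read -0.38 and 0.50 in wild-type males, 2.25 and 2.49 in knockout males, -0.13 and 1.62 in wild-type females and 2.39 and 1.51 in knockout females. It rose too, by 1.76 ± 0.44 (adjusted p = 0.0409), although on this probe the higher female wild-type array lay above the lower female knockout array.

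The call for Socs2 did not hold in every reduced set. The adjusted p was 0.0544 without female knockout 2, 0.0708 without male wild type 1, 0.0742 without male knockout 1, 0.0852 without male knockout 2 and 0.0905 without female knockout 1. The log2 difference moved between 1.5 and 2.34 in these and the other reduced sets, all above 0, and with no filter on dim probes the adjusted p was 0.0667. The exact permutation test over arrays (two-sided, 4 against 4) gave p = 0.0286 for the genotype difference of Socs2, for that of Stat3 and for the sex difference of Stat5a. That is the smallest p this design allows, and after adjustment over the 20 such tests of the 10 genes it was 0.19.

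Socs3, the main brake on interleukin-6 and STAT3 signalling, read 0.25 and 2.32 in wild-type males, 0.50 and 0.44 in knockout males, 0.20 and 1.46 in wild-type females and 0.42 and 0.53 in knockout females. The 4 knockout arrays lay within 0.42 to 0.53, whereas each wild-type group held 1 array below and 1 above that range. The averaged difference was -0.58 ± 0.50 (95% interval -1.80 to 0.63, adjusted p = 0.438). Whether the narrower spread of the knockout arrays differs between the genotypes was not tested.

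Socs1, the inhibitor best known from interferon signalling, read -2.51 and -2.35 in wild-type males, -2.42 and -2.55 in knockout males, -2.24 and -2.25 in wild-type females and -2.27 and -2.44 in knockout females. All 8 values lay within 0.31 of each other, which was the narrowest range among the 10 genes. The averaged knockout difference of Socs1 was -0.08 ± 0.08 (adjusted p = 0.504).

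Cish, the classic growth hormone and STAT5 target, read 0.44 and 4.25 in wild-type males, 1.65 and 2.70 in knockout males, 0.79 and 3.27 in wild-type females and 2.83 and 1.84 in knockout females. The 2 arrays of every group were far apart, and both the lowest and the highest value of all 8 arrays came from wild-type males. The averaged knockout difference of Cish was 0.06 ± 0.97 (95% interval -2.30 to 2.43, adjusted p = 0.969), an interval too wide to say whether the level changed. Its standard deviation within groups, 1.69, was larger than that of 99.9% of all genes, and those of Socs3 (0.86) and Socs2 (0.72) were larger than 98.5% and 97.1%. By contrast the 2 JAKs, the 3 STATs, Socs1 and Ptpn1 had standard deviations of 0.08 to 0.16, smaller than the median of all genes (0.17).

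The differences between arrays of the same group were therefore set out gene by gene, a step chosen after these values had been seen. For Cish, replicate 2 minus replicate 1 was 3.81 in wild-type males, 1.05 in knockout males, 2.48 in wild-type females and -1.0 in knockout females. Socs2 moved the same way as Cish in 4 of 4 groups, with 0.88, 0.24, 1.67 and -0.72. Socs3 did so in 2 of 4, the wild-type groups, with 2.07 and 1.26, while its knockout gaps were -0.06 and 0.11. The probe for Bcl6, itself reported as a gene that growth hormone and STAT5 hold down in liver, moved against Cish in 4 of 4 groups, with -1.06, -0.48, -2.09 and 2.79. Onecut1 (a hepatocyte transcription factor and growth hormone target) went with Cish in 4 of 4 groups, with 1.90, 0.12, 1.08 and -0.45. Igf1, the growth factor that growth hormone induces in liver, did so with smaller gaps of 0.35, 0.09, 0.90 and -0.16. Across all genes 4.96% moved with Cish in 4 of 4 groups and 6.15% moved against it. Of the 16 growth hormone and STAT5 target genes listed, 4 went with Cish in 4 of 4 groups (Myc and Gadd45g beside Onecut1 and Igf1). Against it in 4 of 4 went 1 (Bcl6). In 3 of 4 groups 5 went against Cish (Pim1, Pim2, Pim3, Bcl2l1 and Ccnd1), while Igfals and Cux2 went with it. The share of all genes at 3 of 4 was not computed, so nothing is read from these. The genes given with values were picked for their direction, so they are a description and no test. No label states the time of day or the feeding state at dissection.

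**Figure D3:**
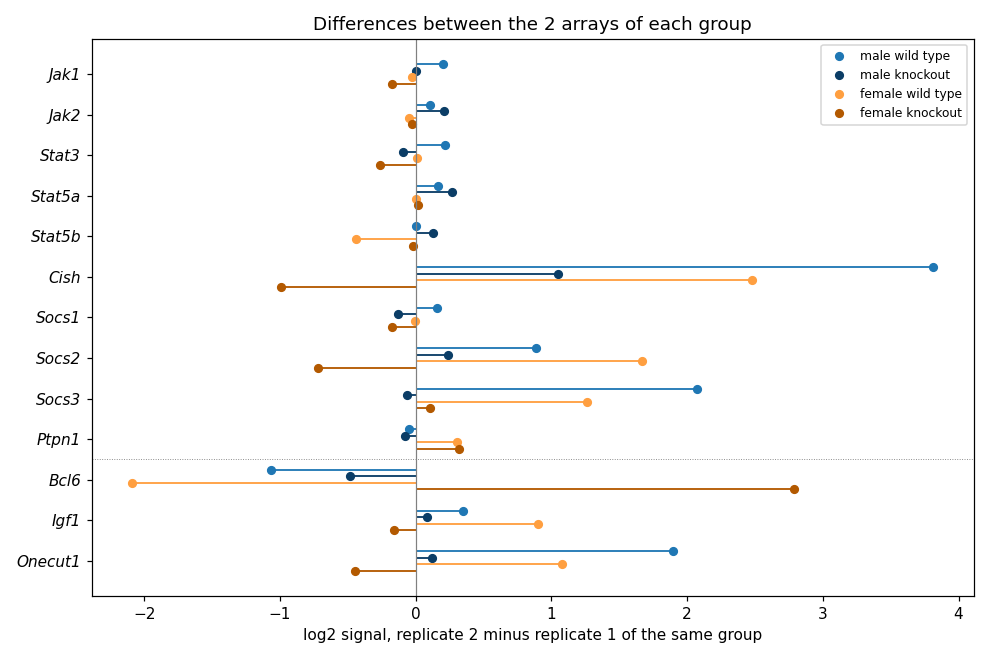
Replicate 2 minus replicate 1 (log2 signal) in each of the 4 groups for the 10 genes and, under the dotted line, Bcl6, Igf1 and Onecut1. Cish and Socs2 point to the same side within each group and Bcl6 to the other side. The JAK and STAT genes lie between -0.44 (Stat5b, wild-type females) and 0.27 (Stat5a, knockout males).

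STAT dimers bind the letters TTCNNNGAA, and the RefSeq table of promoters (GRCm38.p6, 250 bases before to 50 after an annotated start) was searched for them on both strands. It matched 9 of the 10 genes with 11 promoters; Socs2 had no entry. TTCNNNGAA occurred in 2 of the 11, those of Cish and Socs3, and in 8.3% of all 32851 promoters. The stretches around the matches show how they sit, with the matches in capitals: the Cish stretch (chr9:107296529-107296678, plus strand) runs from 130 bases before the annotated start to 20 after it, and the Socs3 stretch (chr11:117969467-117969566, minus strand) from 200 to 101 bases before its start. Both are written 5′ to 3′ on the gene's strand.
Cish: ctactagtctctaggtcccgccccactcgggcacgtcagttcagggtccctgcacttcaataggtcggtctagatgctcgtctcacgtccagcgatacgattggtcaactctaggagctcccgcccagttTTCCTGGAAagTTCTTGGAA
Socs3: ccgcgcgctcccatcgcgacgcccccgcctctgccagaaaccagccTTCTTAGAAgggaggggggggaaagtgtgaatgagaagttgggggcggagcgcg
In Cish 2 matches lay close together, TTCCTGGAA at bases 1 to 9 and TTCTTGGAA at bases 12 to 20 counted from the start. In Socs3 the single match, TTCTTAGAA, lay at bases -154 to -146. The narrower STAT form TTCCNGGAA, which is contained in TTCNNNGAA, occurred in 1 of the 11 (Cish) and 1.15% of all promoters. TTCCTAGAA, a form reported for Bcl6 and also contained in TTCNNNGAA, occurred in 0 of the 11 and 0.41% of all. A match says only that these letters are there.

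Ptpn1, the gene for PTP1B, read 3.34 and 3.29 in wild-type males, 3.56 and 3.48 in knockout males, 3.33 and 3.63 in wild-type females and 3.23 and 3.55 in knockout females. On this probe the male genotypes were separate and the female ones overlapped. On a second, dimmer probe the male genotypes overlapped, with -0.24 and -0.40 in wild type and -0.28 and -0.47 in knockout. The averaged difference was 0.06 ± 0.11 on the first probe (95% interval -0.21 to 0.33, adjusted p = 0.715), and the second gave 0.00 ± 0.10. Cebpb, the gene for an acute phase transcription factor, is the neighbouring protein-coding gene on chromosome 2, and it fell by 1.32 ± 0.13 on the log2 scale (adjusted p = 0.00219). Its arrays read 5.41 to 5.62 in wild type and 3.78 to 4.49 in knockout, without overlap.

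Over the 8 arrays 11 of the 45 pairs of members had a Pearson's r beyond 0.5 in either direction. It was 0.90 between Stat3 and Socs2 and 0.83 between Cish and Socs3, 0.66 between Stat5a and Stat5b, and -0.78 between Stat5a and Socs1. These coefficients include the differences between the groups and are given as descriptions over n = 8 arrays of 1 slide. Among 13969 named genes well above background on all arrays, the 5 closest to Socs2 by Pearson's r were Mbl2, Cited4, Sox18, Tmem170 and Zbp1 (r = 0.96 to 0.98). Closest to Stat3 were Slc39a14, Neurl1a, Ppt1, Mov10 and Coa7 (0.97 to 0.98). For Stat5a they were Paox, Det1, Tpgs1, Cyld and Kif19a (0.97 to 0.99). For Cish, Pigz stood at 0.97 and Tnip2, Tmem185b, Zfp729b and Ulk3 at 0.90 to 0.91. The number of genes above 0.9 was 5 for Cish, 8 for Ptpn1, 9 for Jak2, 14 for Socs1, 16 for Socs3, 58 for Stat5b, 79 for Stat5a, 130 for Socs2, 149 for Jak1 and 268 for Stat3. Socs3 was closest to Mettl14 (0.98), Stat5b to Prrxl1 (0.98), Jak1 to Cpne3 (0.99), Jak2 to Sav1 (0.94), Socs1 to Hrob (0.95) and Ptpn1 to Arf2 (0.95).

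Upstream of the JAKs, the receptor genes Ghr, Prlr and Lifr rose in the knockout by more than any of the 10 genes. Changes of list genes from here on are averages over the sexes unless a sex is named. Such a call need not hold in each sex alone. Of 23 receptor genes that signal through JAKs, 5 rose and 1 fell in the averaged comparison, against 9.82% higher and 10% lower of all genes. The list's median log2 difference was 0.13 against -0.02 for all genes. Ghr, the growth hormone receptor, read 5.29 to 5.88 on the wild-type arrays and 8.46 to 8.57 on the knockout arrays, a rise of 2.90 ± 0.07 (adjusted p = 3.3e-05). Prlr, the prolactin receptor, read 2.43 to 3.74 and 6.02 to 6.23, a rise of 2.89 ± 0.13. Lifr, the receptor for leukaemia inhibitory factor, read 4.20 to 5.44 and 8.58 to 8.77, a rise of 3.59 ± 0.22. For these 3 receptors every knockout array was above every wild-type array by more than the whole spread of either genotype. Il4ra, the interleukin-4 receptor chain, rose by 0.55 ± 0.07, but over the alternatives its difference ran from 0.13 to 0.57. In males alone it ran from 0.03 to 0.57. Csf2rb, the common beta chain of interleukin-3 and related receptors, fell by 0.32 ± 0.07, and in males alone by 0.55 ± 0.10. Over the alternatives its averaged difference ran from -0.35 to -0.13.

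The other kinases, STATs and inhibitors passed the test about as often as all genes did (19.8%). Among 5 other JAK and STAT genes 1 fell, Stat6, which carries the interleukin-4 signal: it read 1.15 to 1.49 in wild type and 0.81 to 0.96 in knockout (-0.49 ± 0.08, adjusted p = 0.0127). Of 27 other SOCS, PIAS, phosphatase and adaptor genes 2 rose and 2 fell. Ptprc, the leukocyte phosphatase CD45, rose by 0.38 ± 0.06 and Sh2b3, an adaptor that restrains JAK2, by 0.45 ± 0.10. Socs7 fell by 0.50 ± 0.10 and Pias3, an inhibitor of STAT3, by 0.56 ± 0.14. Over the alternatives the difference of Pias3 ran from -0.70 to -0.19. The median of these 27 genes was -0.03, against -0.02 for all genes.

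Downstream, 2 of 16 known growth hormone and STAT5 target genes rose and 0 fell in the averaged comparison, with a median of -0.07. Of all genes 9.82% rose and 10% fell. Cux2, a female-biased transcription factor, read -6.23 and -5.84 in wild-type males, not well above background on either array, 0.58 and 1.25 in wild-type females, 2.59 and 2.47 in knockout males and 2.76 and 2.39 in knockout females. Taken against the lowest signal well above background on each array, it was at least 109-fold higher in knockout than in wild-type males. On the same basis it was at least 35.7-fold higher in wild-type females than in wild-type males. Both bounds hold for this processing only: over the alternatives the male knockout log2 difference ran from 3.92 to 8.76. Males minus females in wild type ran from -7.29 to -2.42. In females Cux2 rose by 1.66 ± 0.26 (adjusted p = 0.0239). That call was lost under 6 of 16 alternatives, with adjusted p = 0.0706 without the filter on dim probes, 0.1 in females alone, 0.122 without female knockout 1, 0.0625 without female knockout 2, 0.0627 without male knockout 1 and 0.0594 without male knockout 2. Bcl2l1, which encodes the survival protein BCL-XL, rose by 0.79 ± 0.11, with wild-type arrays at 3.86 to 4.23 and knockout arrays at 4.79 to 5.03. Igf1, the best known hepatic target of growth hormone, did not pass (0.08 ± 0.21, 95% interval -0.43 to 0.59); it was chosen after its values were seen.

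Genes of the STAT3 and acute phase list changed in both directions. Of the 29 tested 8 rose and 4 fell, against 9.82% higher and 10% lower of all genes, with a median of 0.18. Of the 30 listed, A2m did not pass the filter. Itih4, an acute phase plasma protein, read 8.92 to 9.15 in wild type and 9.99 to 10.19 in knockout, a rise of 1.12 ± 0.08 (adjusted p = 0.00063). Orm3, an orosomucoid, rose by 1.57 ± 0.17 and Lcn2, the iron-siderophore binder lipocalin 2, by 1.16 ± 0.18. Itih3, another inter-alpha-trypsin inhibitor chain, rose by 0.78 ± 0.12. Saa4, on the list although it is a serum amyloid A protein made without inflammation, fell by 0.87 ± 0.14, and Cebpb fell as given above. Taken by sex, Itih4, Orm3 and Cebpb passed in each, Lcn2 and Saa4 in males only and Itih3 in females only. The knockout effect did not pass as different between the sexes for any gene of this list.

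Of 18 interferon target genes tested 3 rose and 0 fell, against 9.82% higher and 10% lower of all genes, with a median of 0.33. Of the 20 listed, Ifit1 did not pass the filter and Mx1 had no probe by that name. Irf1, an interferon-induced transcription factor, rose by 0.65 ± 0.07, Oasl1 by 0.96 ± 0.11 and the chemokine gene Cxcl9 by 0.76 ± 0.15. Taken by sex, Irf1 passed in each, Oasl1 in females only and Cxcl9 in males only. No gene of this list passed as different in its knockout effect between the sexes. Oasl1 was also higher in wild-type males than in wild-type females, by 1.24 ± 0.16 (adjusted p = 0.0362). That call was lost under 9 of 17 alternatives, among them every set that left out 1 array except female wild type 2 (adjusted p = 0.0616 to 0.105), no filter on dim probes (0.109) and the wild-type groups fitted alone (0.184). Among 6 STAT6 and STAT4 target genes tested 1 rose and 1 fell, where 19.8% of all genes passed, with a median of 0.06. Of the 9 listed, Retnla, Chil3 and Ifng did not pass the filter. Fcer2a, the low-affinity IgE receptor of B cells, was the gene called higher (adjusted p = 0.0101). It was not well above background in wild-type males, so it has only a bound there, at least 2.29-fold higher in knockout males. That bound holds for this processing only: over the alternatives the male knockout log2 difference ran from 0.30 to 2.08. In females alone Fcer2a did not pass (0.71 ± 0.27, adjusted p = 0.179). Ccl24, a chemokine gene, fell by 0.28 ± 0.07, a call lost under 13 of 16 alternatives (adjusted p up to 0.155). Of 10 insulin signalling genes around PTP1B 1 rose and 1 fell, near the 19.8% of all genes that passed, with a median of 0.00678. Akt2, a kinase downstream of the insulin receptor, rose by 0.44 ± 0.07. Grb14, an inhibitor of the insulin receptor, fell by 0.38 ± 0.07.

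**Figure D4:**
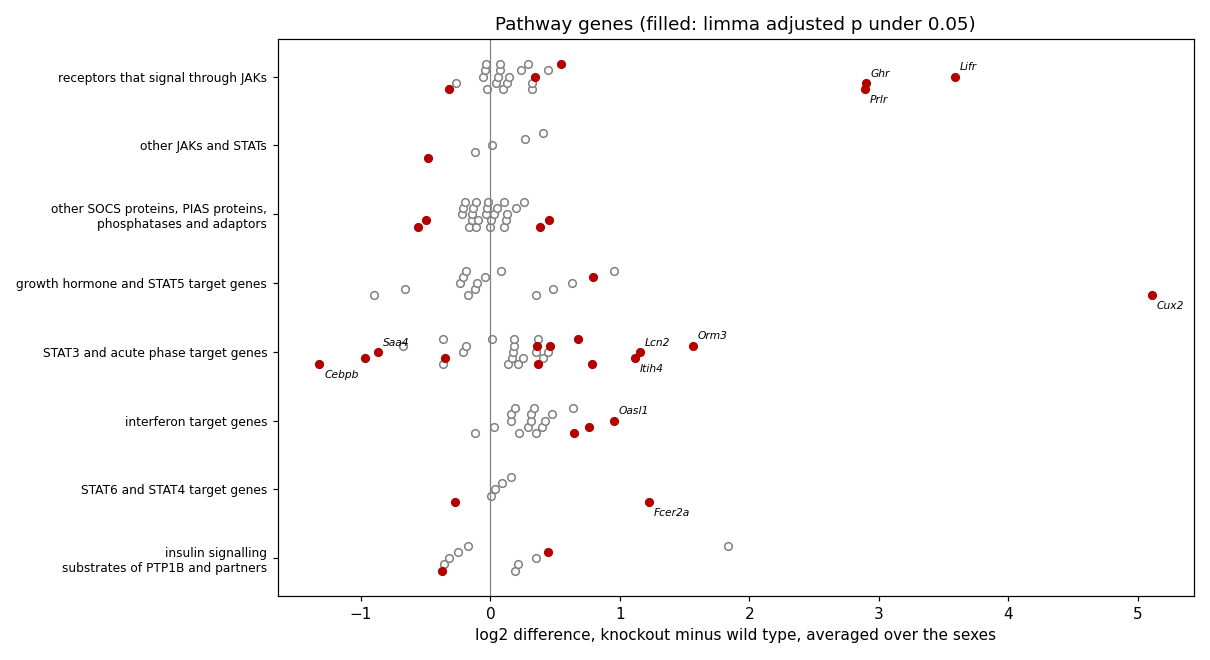
Averaged log2 difference between knockout and wild type for the genes of 8 pathway lists, 1 point per gene, filled where the limma adjusted p was under 0.05; the vertical scatter within a list only separates points. The receptor genes Lifr, Ghr and Prlr lie at 2.89 to 3.59, and nearly all other points lie between -1 and 1. The points of Cux2 and Fcer2a rest on wild-type males not well above background and show no exact size.

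Cell type markers were set beside the rises of Socs2, Stat3, Ptprc and Fcer2a. Of all genes 19.8% passed the averaged test (9.82% higher, 10% lower), and for 25% the arrays of the genotypes did not overlap. Of 5 B and plasma cell markers 3 rose: Sdc1, Cd79b and Ms4a1. The summed level of all 5, 3.37 to 3.66 in wild-type and 4.82 to 4.97 in knockout arrays, is nearly that of Sdc1 alone (3.25 to 3.54 and 4.73 to 4.89), a gene that hepatocytes express too. Cd79b, a chain of the B cell receptor complex, rose by 1.08 ± 0.10. Endothelial markers rose for 3 of 8 genes, with sums of 6.18 to 6.58 and 6.70 to 6.83. Stellate cell markers rose for 3 of 7 genes and fell for 1 (6.23 to 6.89 and 6.66 to 6.98). The 10 hepatocyte markers summed to 12.8 to 13.1 on every array, with 2 higher and 1 lower, so the labelled tissue is borne out by its markers. Of 10 macrophage and 9 T and NK cell markers 0 passed limma's threshold (1 and 0 at an unadjusted p under 0.05). Of 5 neutrophil markers tested 0 passed (1 unadjusted), while their sums were 2.07 to 2.14 in wild type and 2.22 to 2.77 in knockout, without overlap. Of 5 cholangiocyte markers 0 passed (1 unadjusted), with sums of 2.32 to 3.15 and 2.62 to 2.91. Pancreatic acinar markers, of which 3 of 5 were tested (Cpa1 and Pnlip did not pass the filter), summed to 5.27 and 5.85 in wild-type males and 4.12 to 4.54 elsewhere. That sum is nearly Cela1 alone (5.20 and 5.80 in wild-type males), the 1 marker of the list that fell. Of the adipocyte markers Adipoq and Plin1 did not pass the filter, while Lep was well above background on 8 arrays and Retn on 4. Of the muscle markers Ckm, Acta1 and Myh4 did not pass it, while Tnnt3 was well above background on 8 arrays; 0 of these 3 tested adipocyte and muscle markers passed limma's threshold (0 unadjusted). The part of these cell types in the changes above was not tested.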

How the data were processed

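Whole-liver RNA was extracted with Trizol and labelled with Cy3, per the labels' protocols. The deposited intensity values are processed signals of Agilent Feature Extraction, background-subtracted by the authors; its version is 11.5.1.1 per the file headers and 9.1.3.1 per the submitters' processing notes. The deposited value table holds log2 values that equal the log2 processed signal minus 1 constant per array (6.99 to 7.30), within 0.01 for 100% of probes.

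Outlier spots (55 to 139 per array) and controls were left out, spots of a probe averaged, and log2 signals taken relative to each array's 75th percentile. Of 56605 probes 32994 were named through the RefSeq gene list (GRCm38.p6). A probe was kept where any group had both its arrays well above background (33580 probes; 33677 to 36459 spots were well above background per array, and 0 were saturated). The kept probe with the highest mean stood for a gene. The number of arrays limits the precision. Limma 3.58.1 (R 4.3.3; 4 residual and 2.07 prior degrees of freedom) fitted 4 group means to 8 arrays, tested on simulated data first; lists were read out of this fit as counts and medians. Named by rule were every member, up to 5 called genes per list and comparison by adjusted p, Bcl6, and the genes most like each member (5 by the rule; for 6 members the closest is printed). Other named list genes, among them Igf1, Irs2 and Pim1, and the markers were chosen after their values were seen. A summed marker level is the log2 of the summed linear levels. Alternatives were normexp (offset 50; on the median rather than the mean foreground, the column the files hold), other scalings, filters and probe choices, the deposited table, a replicate block, the compared groups alone, and each array left out. The members and lists were chosen with earlier results of these data known; some genes of the pathway and marker lists are not reported here.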

Additional observations from a re-analysis of the deposited data

Results flagged for a closer look

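The knockout effect on Cux2 differed between the sexes by a log2 difference of 6.91 (limma interaction, adjusted p = 0.00948). Its male value rests on wild-type arrays not well above background, so this number is no exact size. For Stat6 males were above females in wild type and below them in knockout on all arrays, a difference of -0.29 between the sex differences (interaction adjusted p = 0.709). The opposite directions as such were not tested, and the interaction did not pass. The measured values of Fcer2a gave opposite signs too, 1.02 apart (adjusted p = 0.552), but in wild-type males it was not well above background, so its direction in wild type is not settled.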

How the results depend on the processing

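Of 1160 recomputed differences of the 10 genes 81 changed sign, 0 of them past the threshold in either fit. In males the count of members called, 0 in the report, was 3 with normexp (Jak1, Stat3 and Socs2), 1 with the percentile over probes detected on all arrays, 1 with probes well above background on all arrays and 1 when males were fitted alone; without single arrays it was 0 to 1. Averaged, the count of 2 became 4 with normexp (Jak1, Stat3, Stat5a and Socs2), 0 without the filter and 1 with probes of a gene averaged. Stat5a joined Socs2 and Stat3 with quantile normalization, and with scaling or filtering on probes detected on all arrays. Without single arrays neither the Socs2 nor the Stat3 call held in every set, as given above. Between the sexes, averaged, 0 became 1 (Stat5a) with normexp. The cause was not tested. Without the filter the adjusted p was 0.0667 for Socs2 and 0.0844 for Stat3; for Stat3 it was 0.0856 with the mean of probes. With the replicate block both stayed called (0.033 and 0.0451); the numbers do not pair the arrays, whose deviations correlated between 0.00 and 0.10 (26510 genes), and the block changed no member's call. Signal over background limits Cux2 and Fcer2a, which were not well above it in wild-type males.

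Of these sign changes 26 lay in the knockout comparisons and the Stat3 interaction and 55 in other comparisons; the lowest adjusted p among them was 0.431. In the first set signs turned with normexp for Socs1 in males (0.0270), Cish averaged (-0.00300) and Socs1 averaged (0.00688), and with the mean of probes for Jak2 averaged (0.00978) and the Stat3 interaction (-0.0108). Without single arrays the male difference ran from -0.0840 to 0.13 for Jak2, -2.08 to 1.73 for Cish, -0.14 to 0.0217 for Socs1 and -1.85 to 0.22 for Socs3. The female one ran from -0.94 to 1.54 for Cish, -0.25 to 0.0711 for Ptpn1, -0.16 to 0.0111 for Jak1, -0.0532 to 0.39 for Stat5b and -0.98 to 0.28 for Socs3. Averaged it ran from -0.89 to 1.02 for Cish and -0.0170 to 0.14 for Ptpn1, and the Stat3 interaction from -0.0235 to 0.24. In the second set, beyond what leaving out an array gave, the averaged sex difference reached 0.00423 for Socs1 and 0.0375 for Jak2, and the interaction 0.113 for Stat5a; further turns there are not listed.

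Counts over all genes moved more. In males 2835 became 1223 to 3205 (1074 to 2908 without single arrays), in females 1573 became 367 to 2635 (562 to 1691) and averaged 5257 became 2614 to 5975 (2804 to 5218). Between the sexes 255 in wild type became 43 to 613 (86 to 1056), 20 in knockout 1 to 21 (11 to 216) and 145 averaged 42 to 253 (120 to 804), and the interaction's 49 became 16 to 74 (80 to 527). Averaged list counts ran from 4 to 9 for receptors (6 in the report), 0 to 1 for other JAKs and STATs (1), 0 to 4 for other inhibitors (4), 2 to 4 for STAT5 targets (2), 6 to 13 for acute phase genes (12), 2 to 5 for interferon targets (3), 1 to 2 for STAT6 and STAT4 targets (2) and 1 to 4 for insulin genes (2). Of the averaged calls named in the report, those of Pias3 (9 of 16 alternatives), Csf2rb (8), Sh2b3 (8), Grb14 (5), Cxcl9 (5), Socs7 (4), Stat6 (2), Ptprc (2) and Il4ra (1) were lost under some, beside Ccl24; those of Ghr, Prlr, Lifr, Bcl2l1, Akt2, Irf1, Oasl1, Itih3, Itih4, Orm3, Lcn2, Saa4 and Cebpb held under all 16. The male call of Csf2rb was lost under 7 of 17.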

Other observations

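Irs2, an insulin receptor substrate among the partners of PTP1B, had an averaged log2 difference of 1.83 ± 0.58 (SE), the largest of its list, and did not pass (limma adjusted p = 0.0755); it was chosen after its values were seen. Pim1, a STAT5 target, stood at 0.63 (adjusted p = 0.0541).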
